A study of Mus musculus with 12 samples.

Results

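The effect of losing BDNF was set against the effect of losing NT4 in the geniculate ganglion of mouse embryos at embryonic day 14.5, as the difference of effects, (BDNF knockout minus BDNF wild type) minus (NT4 knockout minus NT4 wild type). The difference used all 12 of the 12 arrays and all 45037 of the 45101 probe sets that are not array controls. Attention went to the 9010 genes that were read by 2 or more probe sets with 1 gene symbol, out of 18193 genes measured. Those genes held 25762 probe sets, between 2 and 12 each. The wild types and knockouts of the BDNF line (BDNF wild type, BDNF knockout) are on the background strain C57BL/6J, and those of the NT4 line (NT4 wild type, NT4 knockout) are on strain 129. Each of the 4 groups has 3 arrays that the labels call biological replicates. Each line has its own wild type, so the 2 effects share no array, but strain and knocked-out gene go together and cannot be told apart in the difference. The number of ganglia in a sample, the alleles and the animals behind the replicates are not stated in these sources, so p-values measure the spread between these samples.

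BDNF and NT4 are secreted neurotrophins that bind the same receptor tyrosine kinase, TrkB (gene Ntrk2), and also the receptor p75 (gene Ngfr). TrkB signals through the ERK, PI3 kinase and phospholipase C pathways, and both ligands keep taste neurons of the geniculate ganglion alive in the embryo, while BDNF also steers their fibres to their targets in the tongue. The design asks whether 2 ligands of one receptor leave the same or different marks on gene expression.

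Array medians lay between 168 and 201. The neuronal markers of the ganglion were bright on every array, with Tubb3, the neuronal tubulin, at 12707 to 15142 and P2rx3, an ATP receptor of taste neurons, at 7400.4 to 8620.8. The arrays also carried RNA of the tissue around the ganglion, such as Col2a1, the collagen of cartilage, at 5035 to 11846, and of macrophages, with Csf1r at 185 to 1345. In such bulk samples fewer cells of a type and less RNA per cell cannot be told apart. Replicate 2 of each wild type had a log2 Xist that lay 8.09 (BDNF line) and 7.92 (NT4 line) above the mean of Y-linked genes, compared with 2.79 to 5.09 on the other 10 arrays. Replicate 2 was also the highest of each knockout group by this value, at 4.65 (BDNF line) and 5.09 (NT4 line).

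The ligand genes come first, since they check the labels. Bdnf probe set 1422168_a_at read 243, 169 and 288 on the BDNF wild-type arrays, 25.2, 26.9 and 23.3 on the BDNF knockout arrays, 364, 473 and 238 on the NT4 wild-type arrays and 347, 373 and 352 on the NT4 knockout arrays. It fell in the BDNF knockout, with a log2 effect of −3.18 (SE 0.25) and an adjusted p of 0.00176 (8 probe sets, or 0.0178%, passed for the BDNF effect), and all 3 knockout arrays lay far below the other 9. The other Bdnf probe set, 1422169_a_at, which is not stated to lie in the deleted part, had effects of 0.27 in the BDNF line and 0.07 in the NT4 line. The probe set of Ntf5, the gene of NT4, read 147, 110.2 and 118 on the BDNF wild-type arrays, 119, 141 and 153 on the BDNF knockout arrays, 33.8, 42.8 and 46.6 on the NT4 wild-type arrays and 37.2, 42.3 and 36.2 on the NT4 knockout arrays. The NT4 knockout and wild-type arrays overlapped, so Ntf5 did not check the NT4 label, and where its probes lie relative to the deletion is not stated.

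The receptor genes had no difference of effects past the threshold. Ntrk2, with 8 probe sets, had knockout effects of −0.01 (SE 0.13) in the BDNF line and 0.24 (SE 0.13) in the NT4 line, a difference of −0.25 (SE 0.18) with a limma adjusted p of 0.873. Ngfr, with 3 probe sets, had effects of −0.11 and −0.03. Its difference of −0.08 changed sign to 0.05 when arrays were centred on their median.

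Across all probe sets, the difference of effects passed the threshold in 5, or 0.0111% of those tested (limma, Benjamini-Hochberg adjusted p under 0.05 over 45037 probe sets). At an unadjusted p under 0.05 there were 2632, or 5.84%, 694 (1.54%) with the BDNF effect above the NT4 effect and 1938 (4.3%) with it below. That split depended on how the arrays were scaled, since 26.4% of the 2632 were above as deposited, 53.3% of such calls after quantile normalization and 59.3% after centring arrays on their median. Over all probe sets the median difference was −0.07, 0.01 and 0.06 on the log2 scale under these scalings. Directions below are those of the deposited scaling.

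The largest call by size was probe set 1446755_at, which has no gene symbol. It read 2097, 1605 and 2141 on the BDNF wild-type arrays, 69.2, 133 and 44.0 on the BDNF knockout arrays, 1618, 1561 and 1474 on the NT4 wild-type arrays and 1114, 1589 and 2034 on the NT4 knockout arrays. It fell in the BDNF knockout, with a log2 effect of −4.71 (SE 0.35) and an adjusted p of 0.00173, against an NT4 effect of −0.02. The difference was −4.69 (SE 0.50) with an adjusted p of 0.0306. The BDNF knockout arrays stood apart from all 9 others.

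Bloc1s6 encodes a subunit of a complex needed to form lysosome-related organelles, and lies on chromosome 2 as Bdnf does. Its probe set 1457088_at read 124, 109.9 and 75.3 on the BDNF wild-type arrays, 1027, 996 and 1247 on the BDNF knockout arrays, 1037, 1108 and 1014 on the NT4 wild-type arrays and 987, 1144 and 1209 on the NT4 knockout arrays. Here the group apart from the rest was the BDNF wild type, while the BDNF knockout read at the level of both NT4 groups. The difference was 3.35 (SE 0.26) with an adjusted p of 0.0045. The other probe sets of Bloc1s6 had differences of 0.18 and 0.73, and over all 3 the gene's difference was 1.42 (SE 0.15), the 1 gene of 9010 past the threshold (0.0111%, adjusted p = 0.0112). The gene lost this call in 6 of the 12 fits without 1 array, without both arrays of high Xist (adjusted p = 0.123), and by the median of its probe sets, where the difference was 2.37 and the adjusted p 0.143. Over all alternatives its adjusted p ran from 0.00248 to 0.143. The probe set 1457088_at kept its call in each fit without 1 array and lost it without both arrays of high Xist, with an adjusted p of 0.0746. The Bdnf probe set 1422168_a_at was also past the threshold, with a difference of −3.23 (SE 0.35) and an adjusted p of 0.0306.

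Slc6a2, the noradrenaline transporter of sympathetic neurons, had the called probe set with a gene symbol in which the NT4 line carried the difference. Probe set 1442449_at read 5718, 5822 and 5971 on the BDNF wild-type arrays, 5975, 5929.6 and 7264 on the BDNF knockout arrays, 2144, 2190.4 and 2182 on the NT4 wild-type arrays and 864, 926 and 942 on the NT4 knockout arrays. The NT4 knockout arrays lay below their wild types with no overlap, and the BDNF arrays of both genotypes lay above all NT4 arrays. The signal fell in the NT4 knockout, with a log2 effect of −1.25 (SE 0.11) and an adjusted p of 0.0113, 1 of 2 probe sets (0.00444%) that passed for the NT4 effect. The BDNF effect was 0.12 (SE 0.11), and the difference was 1.38 (SE 0.15) with an adjusted p of 0.0306. This call was lost in each of the 12 fits that left out 1 array, where the difference ran from 1.28 to 1.43 and the adjusted p from 0.0721 to 0.191, and it was also lost without both arrays of high Xist, with an adjusted p of 0.534.

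The fifth call, 1441692_at, has no gene symbol and read 149, 163 and 149 on the BDNF wild-type arrays, 133, 105 and 134 on the BDNF knockout arrays, 80.4, 77.1 and 80.2 on the NT4 wild-type arrays and 175, 224 and 192 on the NT4 knockout arrays. The NT4 knockout arrays were above all the others and the BDNF effect was negative. Its difference was −1.63 (SE 0.19) with an adjusted p of 0.0413, and it too was past the threshold in 0 of the 12 fits without 1 array. Just outside the threshold stood Matr3 1458508_at, with a difference of −1.94 and an adjusted p of 0.0998.

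**Figure D1:**
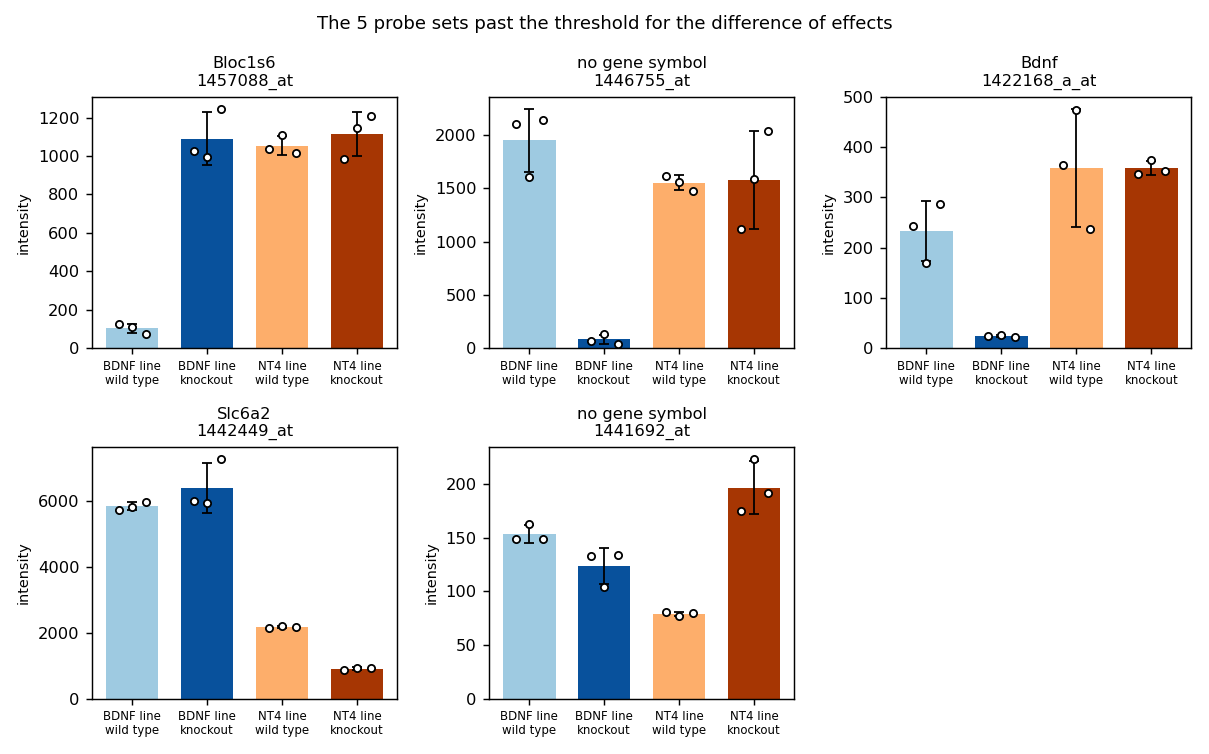
Intensity (linear scale, vertical axis) of the 5 probe sets past the threshold for the difference of effects. Points are arrays, bars are means of 3 arrays and error bars are SD. In Bloc1s6 1457088_at the BDNF wild type stands apart at 75.3 to 124, and in Slc6a2 1442449_at the NT4 knockout lies at 864 to 942 below its wild type at 2144 to 2190.4.

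The mean of the 2 effects tests for a shared change. It passed the threshold in 4 probe sets (0.00888%), which were Bloc1s6 1457088_at, 1446755_at, Bdnf 1422168_a_at and Pak6 1455200_at. In each the BDNF line carried the mean: the NT4 effects were 0.08, −0.02, 0.05 and 0.32. Over genes, the mean effect passed the threshold in 1 of 9010 (0.0111%), again Bloc1s6. The NT4 effect of Bloc1s6 was −0.07, so no gene passed the test of the mean with both lines moved. At an unadjusted p under 0.05 the mean effect took 626 genes (6.95%), 349 higher (3.87%) and 277 lower (3.07%). Across the 9010 genes the 2 effects correlated at r = 0.0355, and 50.3% of genes had the same sign in both lines. These are descriptions across genes, which are not independent replicates and share their arrays.

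**Figure D2:**
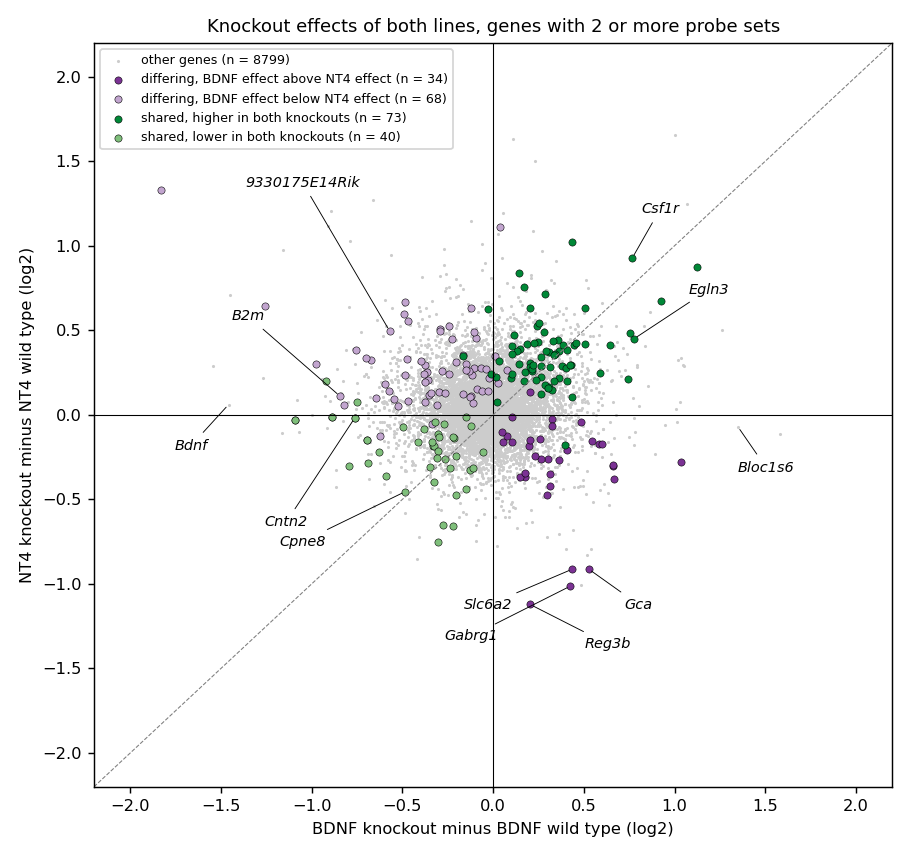
Knockout effects of the 9010 genes with 2 or more probe sets, BDNF line on the horizontal and NT4 line on the vertical axis (log2, mean of the gene's probe sets); 2 genes lie outside the axes and the dashed line marks equal effects. Differing genes lie away from that line and shared genes mostly along it, as their selection on single probe sets makes them do. The 4 genes in both classes are drawn as shared.

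Probe sets of a gene are not replicates, since they read the same RNA on the same arrays, but they show whether a value rests on 1 probe set. Between the brightest and the second probe set of the 9010 genes, the difference of effects correlated at r = 0.201 and the mean effect at r = 0.223. Of the 398 genes whose brightest probe set had an unadjusted p under 0.05 for the difference, 278 (69.8%) had the same sign in the second probe set. In 53 (13.3%) the second was also under 0.05 with that sign, and in 6 with the opposite sign. Over all genes the second probe set was under 0.05 in 6.24%.

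A gene was counted as differing where at least 2 of its probe sets had an unadjusted p under 0.05 for the difference, all with one sign. There were 102 such genes, 1.13% of 9010, with the BDNF effect above the NT4 effect in 34 (0.377%) and below it in 68 (0.755%). After quantile normalization the split was 65 above and 32 below, and after centring 82 and 22. A gene was counted as shared where at least 2 probe sets had an unadjusted p under 0.05 for the mean effect with both effects of its sign. There were 113 (1.25%), 73 higher in the knockouts (0.81%) and 40 lower (0.444%), which became 53 and 64 after quantile normalization and 32 and 99 after centring. These classes were chosen by the values themselves and are descriptions with no test. Their members changed when 1 array was left out. In all 12 such fits, 12 of the 34 and 20 of the 68 differing genes kept their class. Of the shared genes, 16 of the 73 higher and 9 of the 40 lower did so. Under both other scalings, all 34 differing genes above and 21 of the 68 below kept it. For shared genes these numbers were 32 of the 73 higher and all 40 lower. Of the 102 differing genes, 91 had gene effects of opposite sign in the 2 lines, against 4477 (49.7%) of all 9010 genes. Choice by the difference favours opposite signs, so nothing is read from this count.

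A stricter description asked that both effects of a gene had an unadjusted p under 0.05. Signs were opposite in 25 genes (0.277%) and the same in 34 (0.377%). Of the 25, 9 were higher in the BDNF knockout and lower in the NT4 knockout (0.0999%), and 16 the reverse (0.178%). This split became 20 and 5 after quantile normalization and 25 and 6 after centring. Of the 34 alike, 26 were higher in both knockouts (0.289%) and 8 lower (0.0888%), which became 18 and 19, then 10 and 31, under the same scalings. Leaving out 1 array gave 15 opposite genes without BDNF wild-type replicate 2 and 42 without BDNF knockout replicate 2. The count of genes alike in both lines was 57 without BDNF wild-type replicate 2 and 16 without NT4 wild-type replicate 2. There were 10 opposite genes that were also differing, 6 of the first pattern and 4 of the second, and none passed the adjusted threshold over genes, with adjusted p from 0.155 to 0.676.

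Slc6a2 led the genes that were higher without BDNF and lower without NT4. Over its 4 probe sets the BDNF effect was 0.44 (SE 0.15), the NT4 effect −0.91 (SE 0.15) and the difference 1.35 (SE 0.21). Among its probe sets, 3 differed alike, by 1.38, 1.78 and 2.12, and 1447311_at by 0.12. Probe set 1460129_at read 1899, 1606 and 1879 in BDNF wild types, 2205, 2242 and 2806 in BDNF knockouts, 810.3, 879.9 and 700.4 in NT4 wild types and 345, 220.1 and 391 in NT4 knockouts. Its BDNF groups did not overlap, nor did its NT4 groups.

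The noradrenergic list holds 11 genes, all measured, 4 of them with a single probe set. By the brightest probe set of each, 8 members had a difference above 0, against 7757 of all 18193 genes so measured, and 3 below. Those below were Gata3 (−0.60, SE 0.57), Gata2 (−0.32, SE 0.21) and Hand2 (−0.18, SE 0.28). An unadjusted p under 0.05 for the difference was met by 3 members, all above 0, against 1.42% of genes so measured. These 3 were Slc6a2, already a call above, Th (1.20), which makes the precursor of noradrenaline, and the vesicle transporter Slc18a1 (0.56). Th lies on chromosome 7, as Ntf5 does. That probe set of Slc18a1 was dim, with group means from 60.9 to 90.5. The other probe sets of Slc18a1 differed by 0.07 and −0.28. Slc18a2, a brighter vesicle transporter, had a difference of 0.34 (SE 0.46). The probe set of Th read 681, 415 and 509 in BDNF wild types, 931, 677 and 960.3 in BDNF knockouts, 512, 529 and 377 in NT4 wild types and 277, 352 and 364 in NT4 knockouts, with the NT4 groups apart and the BDNF groups overlapping. Dbh, the enzyme that makes noradrenaline, had group means of 81.7 to 96.3 on its brightest probe set, with a difference of 0.11.

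Gabrg1, a gamma subunit of the GABA-A receptor, had effects of 0.43 (SE 0.19) and −1.01 (SE 0.19). Its probe set 1427227_at read 213, 161 and 384 in BDNF wild types, 321, 273 and 507 in BDNF knockouts, 208, 206 and 224 in NT4 wild types and 89.3, 80.2 and 86.2 in NT4 knockouts, and 1460408_at read 2055, 2085 and 2313 in BDNF wild types, 2648, 2190.0 and 2965 in BDNF knockouts, 1277, 1339 and 1258 in NT4 wild types and 724, 834 and 818 in NT4 knockouts. In both probe sets the BDNF groups overlapped, and each NT4 knockout array lay below each NT4 wild-type array. The promoter window of Gabrg1 is shown as that of the gene with the largest difference among the 10 opposite genes that also differed, at chr5:70842568-70842867 of GRCm38.p6 on the minus strand. It runs from 250 bases before to 50 after the gene's start in RefSeq. A search of both strands for TGACGTCA (the cyclic AMP response element), TGACG (its shorter form), ACGTG (the core of the hypoxia response element) and TGACTCA (the AP-1 element) found none of these letters in this window, so it is all in lower case.
Gabrg1: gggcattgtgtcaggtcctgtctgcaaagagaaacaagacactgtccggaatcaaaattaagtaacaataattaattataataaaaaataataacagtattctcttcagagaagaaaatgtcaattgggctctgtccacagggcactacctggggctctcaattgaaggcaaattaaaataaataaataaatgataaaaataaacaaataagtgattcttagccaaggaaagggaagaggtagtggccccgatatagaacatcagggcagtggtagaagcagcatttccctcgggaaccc

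Gca, the calcium-binding protein grancalcin, had effects of 0.53 and −0.91 and lies on chromosome 2. Its probe set 1451451_at read 38.2, 17.2 and 15.1 in BDNF wild types, 31.9, 32.2 and 30.7 in BDNF knockouts, 34.7, 43.4 and 80.6 in NT4 wild types and 16, 19.8 and 15.8 in NT4 knockouts, and its other probe set had a difference of 0.79. Ust, a sulfotransferase of glycosaminoglycan chains, had effects of 0.31 (SE 0.12) and −0.42 (SE 0.12), and neither line's groups overlapped. Jak1, a kinase of cytokine receptors, had differences of 0.44, 0.58 and 0.56 in its 3 probe sets. As a mean of the 3, Jak1 read 2745, 2267 and 2735 in BDNF wild types, 2948, 2883 and 3454 in BDNF knockouts, 2327, 2520.5 and 2402 in NT4 wild types and 1994, 1838 and 2227 in NT4 knockouts. Each knockout array of Jak1 lay above its wild types in the BDNF line and below them in the NT4 line. Epdr1, an ependymin-related protein, had effects of 0.31 and −0.35, and 1 of its 3 probe sets showed no such pattern, at −0.08.

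The reverse pattern, lower without BDNF and higher without NT4, was met by 16 genes, 4 of which also differed. Spon1, the extracellular matrix protein F-spondin, had effects of −0.24 (SE 0.09) and 0.24 (SE 0.09) over 4 probe sets, with differences of −0.91, −0.81, −0.52 and 0.30. Acvr2b, an activin receptor, had effects of −0.28 (SE 0.11) and 0.26 (SE 0.11). The transcripts 9330175E14Rik and 4833422M21Rik had differences of −1.07 and −1.03. 4833422M21Rik was dim, with group means from 15.0 to 22.5. Spon1 and Acvr2b no longer met the opposite pattern under either other scaling, although their effects kept their signs. Spon1 and 9330175E14Rik were counted as differing under neither other scaling. In the 12 fits without 1 array, 9330175E14Rik kept the differing class in 3 and Spon1 in 12. In all 4 genes the knockout and wild-type arrays did not overlap in either line, as in 13 of the 16 genes of this pattern. The choice by p in both lines all but fixes this, so nothing is read from it against the 1.29% of all 9010 genes. Of the 25 opposite genes, 0 of the 9 higher without BDNF and 3 of the 16 lower without it kept their pattern in all 12 fits without 1 array.

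**Figure D3:**
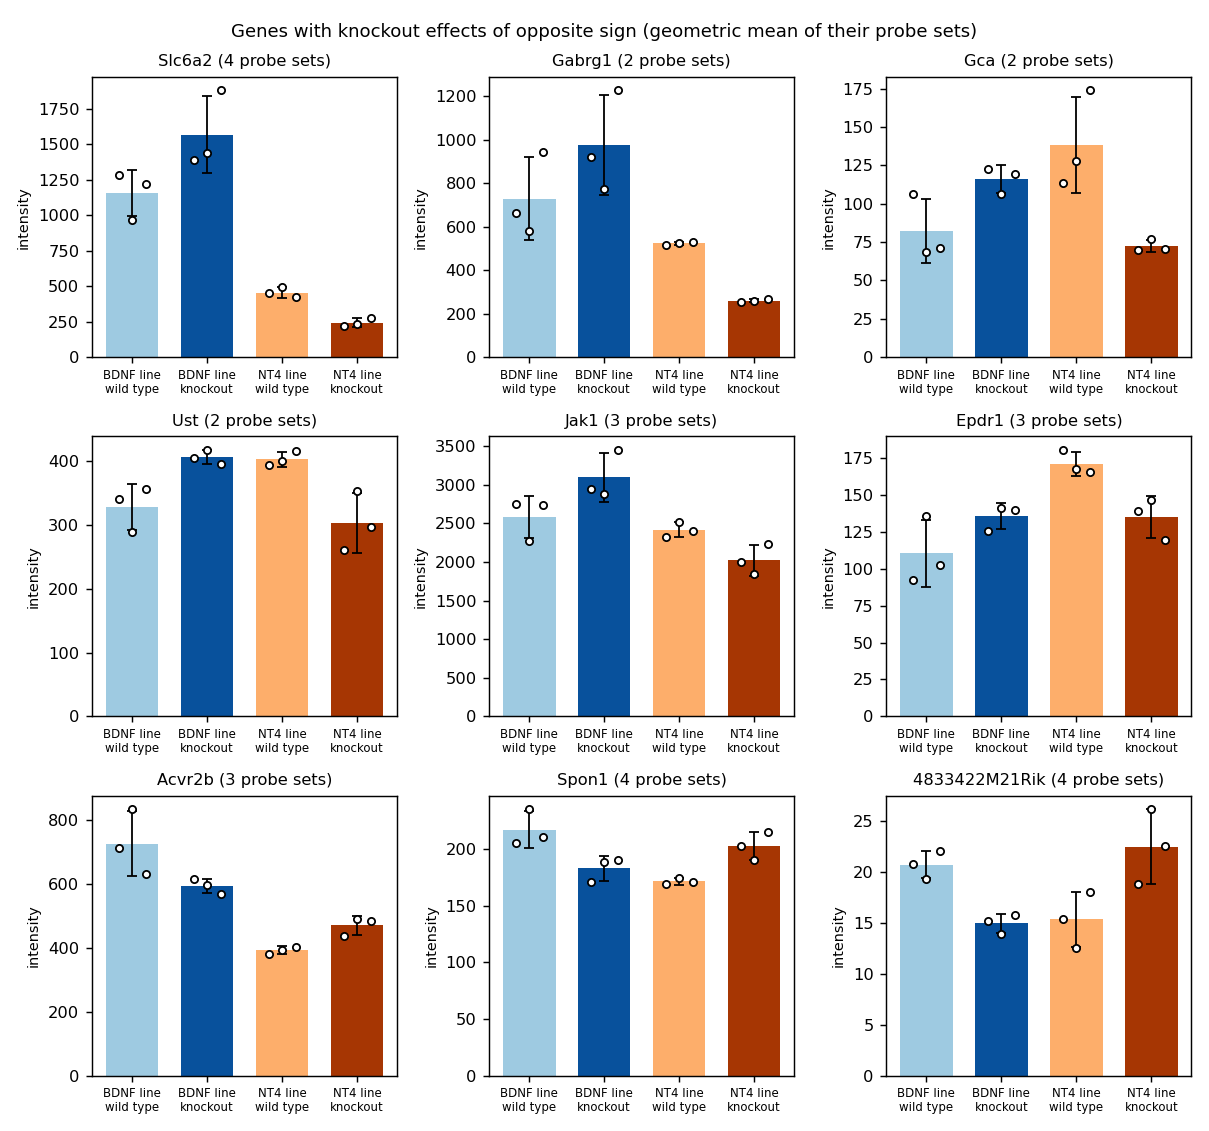
Intensity (linear scale, geometric mean of a gene's probe sets) of 9 genes with knockout effects of opposite sign in the 2 lines. Points are arrays, bars are means of 3 arrays and error bars are SD. Slc6a2, Gabrg1, Gca, Ust, Jak1 and Epdr1 are higher in the BDNF knockout and lower in the NT4 knockout, and Acvr2b, Spon1 and 4833422M21Rik the reverse.

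Among the other differing genes with the BDNF effect above the NT4 effect, either line could carry the difference. Reg3b, a secreted lectin, had an NT4 effect of −1.12 (SE 0.27) and a BDNF effect of 0.20 (SE 0.27). Its probe set 1448290_at read 4059.8, 3012 and 3470.4 in BDNF wild types, 3588, 3512 and 5127 in BDNF knockouts, 2216, 2430.5 and 2176 in NT4 wild types and 1704, 764 and 987 in NT4 knockouts. The NT4 knockout arrays of Reg3b were the lowest and did not overlap their wild types. Pcdh10, a protocadherin that mediates cell adhesion, had a difference above 0 in all 6 of its probe sets, from 0.26 to 1.06, with effects of 0.30 and −0.48. Pcdh19, another protocadherin, had effects of 0.36 and −0.27. S1pr2, a receptor for sphingosine phosphate, had differences of 0.64 and 0.59 and groups apart in both lines. C1qtnf7 and Vwa5a had BDNF effects of 0.66 and 0.67 against NT4 effects of −0.30 and −0.38.

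In most named genes with the BDNF effect below the NT4 effect, the BDNF line carried the difference. Cntn2, an axonal adhesion molecule of the immunoglobulin family, had effects of −0.76 (SE 0.13) and −0.02 (SE 0.13), and its 4 probe sets differed by −1.02, −0.89, −0.59 and −0.48. As a mean of its probe sets, Cntn2 read 1265, 1325 and 1468 in BDNF wild types, 749, 840.1 and 799.6 in BDNF knockouts, 1943, 1829.6 and 1902 in NT4 wild types and 1528, 1855 and 2291 in NT4 knockouts. The BDNF knockout arrays of Cntn2 lay below every other array. Plxnc1, a semaphorin receptor, had effects of −0.52 and 0.05, and all 6 probe sets had a difference below 0. Chst15, a sulfotransferase of chondroitin chains, had effects of −0.89 and −0.01.

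B2m, the light chain of class I histocompatibility molecules, had effects of −0.85 (SE 0.15) and 0.11 (SE 0.15) and lies on chromosome 2. Its probe set 1452428_a_at read 4269, 3749.6 and 3796 in BDNF wild types, 2087, 1907 and 1435 in BDNF knockouts, 2071, 1865 and 2842 in NT4 wild types and 2699, 2495 and 2307 in NT4 knockouts. Cd44, the hyaluronan receptor, also on chromosome 2, had effects of −0.70 (SE 0.10) and −0.15 (SE 0.10). Genes of chromosome 2, where Bdnf lies, were 8 of the 68 differing genes below and 1 of the 34 above, against 8.28% of all 9010 genes. Genes of chromosome 7, where Ntf5 lies, were 10 of the 68 below and 0 of the 34 above, against 588 of all 9010, and Chst15, Ctr9 and Spon1 are among them. The part of the chromosome in these differences was not tested. Ctr9, a subunit of the Paf1 complex of transcription elongation, had effects of −0.67 and 0.33, and its 5 probe sets ranged from −2.25 to −0.25 in the difference. Susd4 and Otud5 had BDNF effects of −0.63 and −0.34 and NT4 effects of −0.13 and 0.13. Klf12, Susd4 and Acvr2b were counted as differing under neither other scaling, and B2m, Cd44 and Chst15 under 1 of 2. In Klf12, a zinc finger transcription factor, the NT4 line carried the difference, with effects of −0.23 and 0.45 and all 5 probe sets below 0. None of the named differing genes from Reg3b to Klf12 passed the threshold over genes, and their adjusted p ran from 0.498 to 0.678.

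Of the 113 shared genes, 107 had gene effects of one sign in both lines, against 50.3% of all 9010 genes. The shared rule asks for effects of one sign in the probe sets, so it all but fixes this count. In 15 of the 113 each line had an unadjusted p under 0.05, which the rule also favours, against 34 alike genes (0.377%) of all 9010. None of the 113 passed the adjusted test of the mean effect, where the lowest adjusted p of a shared gene was 0.179. The receptor gene Ntrk2 met the shared rule as higher, by 2 of its 8 probe sets. It kept that class under both other scalings and in 8 of the 12 fits without 1 array. Over all 8 probe sets its mean effect was 0.11 (SE 0.09). Csf1r, the receptor of the macrophage growth factors, had effects of 0.77 (SE 0.21) and 0.93 (SE 0.21) over 3 probe sets. Its probe set 1419872_at read 185, 457 and 352 in BDNF wild types, 647, 966 and 849 in BDNF knockouts, 285, 449.6 and 527 in NT4 wild types and 1089, 1345 and 779 in NT4 knockouts. Csf1r knockout arrays lay above their wild types in both lines, while its probe set 1423593_a_at had effects of −0.05 and 0.34.

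Egln3, an oxygen-dependent prolyl hydroxylase that marks hypoxia-inducible factors for destruction, had effects of 0.78 (SE 0.16) and 0.45 (SE 0.16). Probe set 1418648_at read 314, 409 and 299 in BDNF wild types, 533, 458 and 742 in BDNF knockouts, 368, 289.7 and 368 in NT4 wild types and 359, 697 and 479 in NT4 knockouts, and 1418649_at read 172, 184 and 285 in BDNF wild types, 361, 448 and 299 in BDNF knockouts, 293, 302 and 286 in NT4 wild types and 608, 391 and 225 in NT4 knockouts. In the BDNF line the groups did not overlap in either probe set. In the NT4 line they overlapped in each probe set, and as a mean of both the lowest knockout and the highest wild type both read 328. Egln3 met the shared rule under neither other scaling. Its promoter window, at chr12:54203825-54204124 of GRCm38.p6 on the minus strand and searched as for Gabrg1, is shown as that of 1 of the shared genes with the lowest p. Capitals mark 1 match each to ACGTG and TGACG on either strand.
Egln3: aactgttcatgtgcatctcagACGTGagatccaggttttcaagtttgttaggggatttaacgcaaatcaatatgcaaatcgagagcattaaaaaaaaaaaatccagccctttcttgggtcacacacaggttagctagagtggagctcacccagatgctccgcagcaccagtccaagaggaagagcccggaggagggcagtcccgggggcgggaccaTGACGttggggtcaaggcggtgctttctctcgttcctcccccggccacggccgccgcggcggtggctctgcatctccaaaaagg
ACGTG stood in 19.62% and TGACG in 20.81% of all 32851 promoter windows, and in 24.23% and 29.06% of those of the genes with 2 or more probe sets. The long form TGACGTCA stood in 1.79% and TGACTCA in 5.202% of all windows. A match is a description of letters, not a binding site.

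Kcnmb2, an auxiliary subunit of large-conductance potassium channels, had effects of 0.75 (SE 0.18) and 0.48 (SE 0.18). As a mean of 2 probe sets it read 601, 391 and 469 in BDNF wild types, 788, 826 and 809 in BDNF knockouts, 688, 715 and 686 in NT4 wild types and 806, 1280.0 and 890.4 in NT4 knockouts, with the groups apart in both lines. Trps1, a zinc finger repressor, had effects of 0.46 (SE 0.13) and 0.42 (SE 0.13), and Lepr, the leptin receptor, of 0.31 and 0.37. Eya1, a cofactor needed for the cranial placodes that give rise to this ganglion, had effects of 0.59 (SE 0.14) and 0.25 (SE 0.14), carried most by probe set 1443117_at. Tfap2a, a transcription factor of neural crest and placodes, had effects of 0.42 and 0.29. Aspn, a matrix proteoglycan, had 0.92 and 0.67, Daam2, a formin, 0.41 and 0.39, and the transcript A330076H08Rik 1.12 and 0.88.

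Among the named shared genes lower in the knockouts, Cpne8, a calcium-dependent membrane-binding copine, was the most even. Its effects were −0.48 (SE 0.15) and −0.45 (SE 0.15), and as a mean of 3 probe sets it read 533, 402 and 430.2 in BDNF wild types, 327, 270.3 and 382 in BDNF knockouts, 508, 463 and 417 in NT4 wild types and 356, 338 and 316 in NT4 knockouts. The groups of Cpne8 did not overlap in either line. In the genes named next the BDNF effect was the larger by size, as it was in 29 of the 40 shared genes lower in the knockouts. It was the larger in 29 of the 73 shared genes higher in the knockouts and in 4561 of all 9010 genes. The gap depended on scaling. After centring, the effects were −0.32 and −0.30 for Kctd8 and −0.32 and −0.28 for Spsb4. Syt13, of the synaptotagmin family, had effects of −0.79 and −0.30, Septin4, a cytoskeletal GTPase, of −0.63 and −0.22, and the homeobox factor Shox2 of −0.59 and −0.36. Kitl, the ligand of the KIT receptor, had −0.42 and −0.16, Kctd8, an auxiliary subunit of GABA-B receptors, −0.33 and −0.18, and Spsb4, an adaptor of a ubiquitin ligase, −0.34 and −0.16. Cd44, Cntn2 and Chst15 met the shared rule as well as the differing one, with NT4 effects of −0.15, −0.02 and −0.01. The count of shared genes was 67 without NT4 wild-type replicate 1 and 57 without NT4 wild-type replicate 2.

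**Figure D4:**
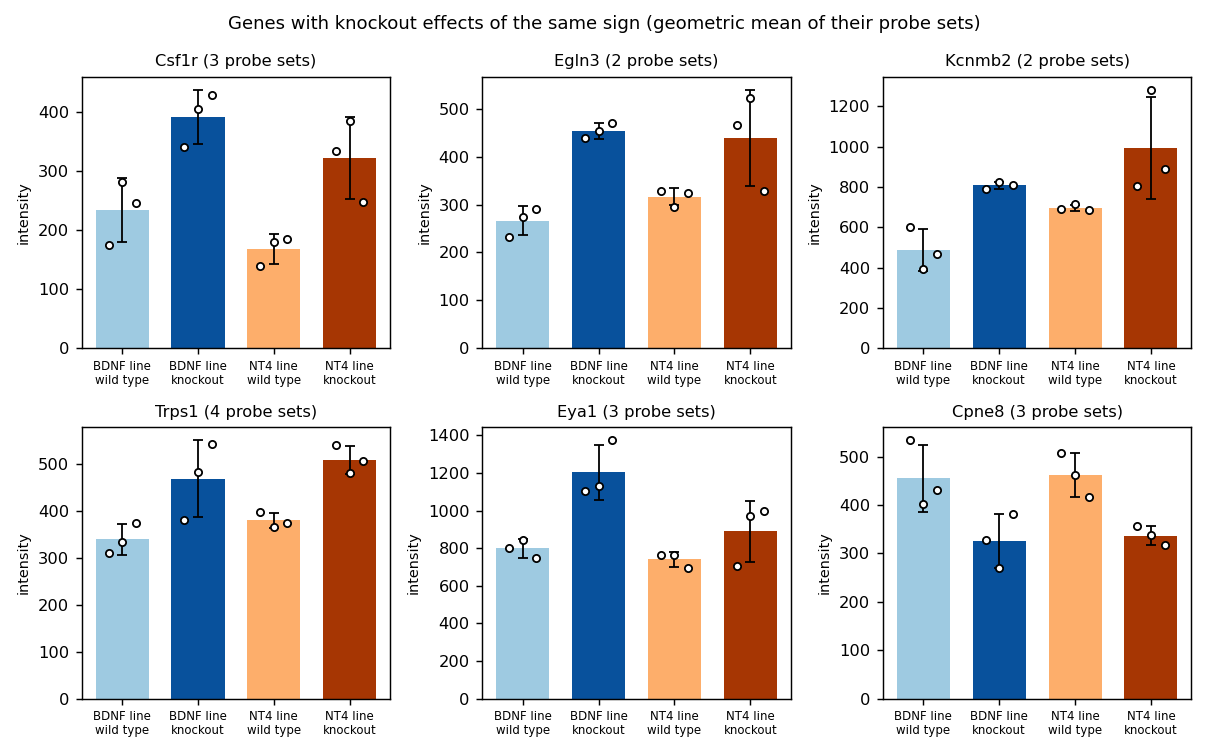
Intensity (linear scale, geometric mean of a gene's probe sets) of 6 genes with knockout effects of the same sign in both lines. Points are arrays, bars are means of 3 arrays and error bars are SD. Csf1r, Egln3, Kcnmb2, Trps1 and Eya1 are higher in both knockouts and Cpne8 is lower in both.

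Gene lists were described by counts over their members with 2 or more probe sets, beside a median difference of −0.06 over all 9010 genes and an unadjusted p under 0.05 above 0 in 1.66% and below 0 in 4.38% of them, 6.05% in all. No list member passed the adjusted threshold over genes. Of 8 neurotrophins and receptors, 2 had an unadjusted p under 0.05, both below 0. They were Bdnf and Sort1, the sorting receptor of neurotrophin precursors, at −0.35 (SE 0.16). Bdnf is the gene knocked out in the BDNF line, so nothing about the list is read from it. Of 21 genes of TrkB signalling, 2 were also below 0: Shc1, an adaptor of the receptor, at −0.34 (SE 0.13), and the kinase Braf at −0.55 (SE 0.25), whose 9 probe sets ranged from −1.62 to 0.25. Braf was counted as differing under neither other scaling and in 5 of the 12 fits without 1 array. The 8 genes of ERK feedback and ETS factors had a median BDNF effect of −0.18, a median NT4 effect of 0.05 and a median difference of −0.28, and 0 members had an unadjusted p under 0.05. After centring the median difference was −0.15. Over the 14 members measured by their brightest probe set, the median difference was −0.10 as deposited and 0.03 after centring. Among the 8, the members of lowest p were Spred1, Spred2 and Etv5, at −0.30, −0.26 and −0.47.

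Of 23 semaphorins and plexins, 1 was above 0 at this p, the repellent Sema3d (0.49, SE 0.18), and 1 below, Plxnc1. The Sema3d signal was higher in the BDNF knockout by 0.46, and its NT4 effect was −0.03. Of 25 Eph, Slit and netrin guidance genes, 1 was above, the ephrin receptor Epha3 (0.57, SE 0.23), and 3 were below: Cntn2, the repellent Slit1 (−0.67, SE 0.18) and the netrin receptor Unc5b (−0.73). The BDNF effect of Slit1 was −0.60 and its NT4 effect 0.07. The 6 geniculate and visceral identity genes had a median difference of 0.02 and none at this p; their members of lowest p were Eya1, Gfra1 (−0.44) and Ret (−0.31), receptors of the GDNF family. The 7 noradrenergic genes with 2 or more probe sets had a median of 0.07, with Slc6a2 the 1 member at this p.

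Of 19 cell cycle genes, 17 had a difference below 0, with a median BDNF effect of −0.03 and a median NT4 effect of 0.19, and 2 had an unadjusted p under 0.05. These were the mitotic checkpoint kinase Bub1b (−0.72, SE 0.21), on chromosome 2, and Tyms, the thymidylate synthase (−0.77, SE 0.26). The topoisomerase Top2a had effects of −0.05 and 0.22. After centring, 14 of the 19 were below 0, with a median difference of −0.17 in place of −0.30. Of all 9010 genes, 5520 had a difference below 0 as deposited and 3537 after centring. Of 17 respiratory chain genes, 14 had a difference above 0, with a median of 0.11, and 16 after centring, with a median of 0.24. Of all 9010 genes, 3490 had a difference above 0 as deposited, with a median of −0.06, and 5473 after centring, with a median of 0.06.

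The cartilage, connective tissue and macrophage lists had median effects above 0 in both lines under each scaling, and no member of these 3 lists was past the threshold. They were not alone in this. By the brightest probe set, inner ear epithelium (0.10 in the BDNF line and 0.36 in the NT4 line as deposited) and endothelium (0.02 and 0.13) did so too. So did geniculate and visceral identity genes with 2 or more probe sets (0.12 and 0.16), but not by the brightest (−0.01 and −0.04). By the brightest probe set, 18 of 18 cartilage genes had an NT4 effect above 0 and 14 a BDNF effect above 0, with medians of 0.53 and 0.13. The mean log2 level of the cartilage list ran from 8.85 to 9.58 in BDNF wild types, 8.98 to 10.20 in BDNF knockouts, 8.48 to 8.65 in NT4 wild types and 8.70 to 9.57 in NT4 knockouts. Its NT4 groups did not overlap and its BDNF groups did. After centring the cartilage medians were 0.41 in the NT4 line and 0.15 in the BDNF line, and 16 genes had an NT4 effect above 0. All 18 connective tissue genes were above 0 in both lines, with median effects of 0.23 and 0.33 (0.24 and 0.21 after centring, when 16 had an NT4 effect above 0), and their mean level ran from 10.54 to 10.82, 10.70 to 11.28, 10.16 to 11.09 and 10.63 to 11.10 in the same order of groups.

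Of 16 macrophage genes, 11 had a BDNF effect and 14 an NT4 effect above 0, with medians of 0.16 and 0.58 (0.17 and 0.47 after centring). The mean level of the macrophage list ran from 7.14 to 7.55, 7.35 to 7.74, 7.08 to 7.72 and 7.73 to 8.07 in that order, and C1qb, a complement component made by macrophages, had effects of 0.17 (SE 0.22) and 0.75 (SE 0.22). No defining marker of these lists was listed at 0. Among the shared genes, Csf1r is itself a macrophage gene and Aspn a matrix gene, and the part of these tissues in the differing and shared genes was not tested. The pan-neuronal list of 20 genes had median effects of −0.04 and −0.04, and of −0.02 and −0.16 after centring.

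**Figure D5:**
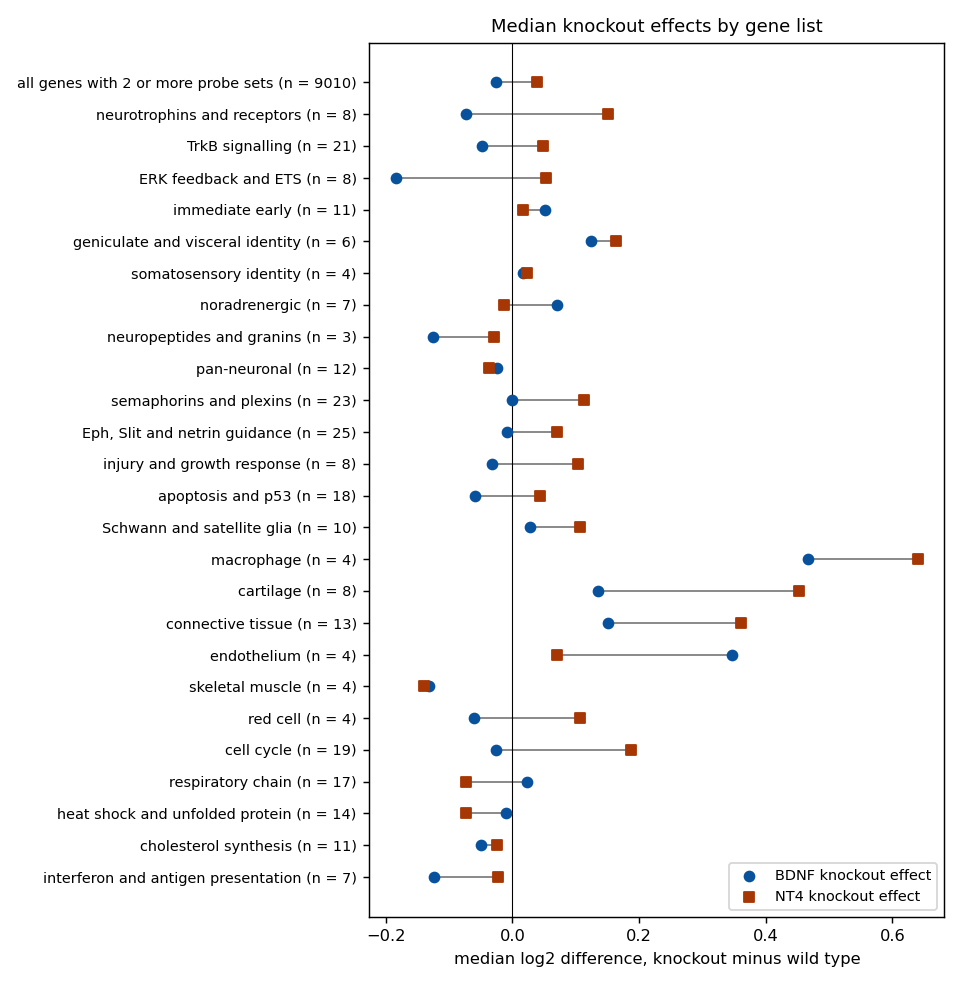
Median knockout effect (log2, horizontal axis) of the genes with 2 or more probe sets in each gene list, circles for the BDNF line and squares for the NT4 line, with the number of genes measured in parentheses. Macrophage, cartilage and connective tissue lists lie above 0 in both lines, and the median over all 9010 genes is −0.03 and 0.04. Also above 0 in both lines are the lists of geniculate and visceral identity, somatosensory identity, immediate early genes, Schwann and satellite glia, and endothelium.

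The authors' deposited tables list probe sets chosen for each line, 284 higher and 383 lower in the BDNF knockout and 377 higher and 295 lower in the NT4 knockout. The lists shared 24 probe sets, 3.60% of the first and 3.57% of the second, 13 with the same direction and 11 with opposite directions in the authors' deposited tables. By gene, 549 and 535 genes were listed, and 47 were in both. Genes listed with at least 2 probe sets of one direction numbered 31 and 27, and Csf1r was the 1 gene in both sets. In the authors' deposited tables its 2 probe sets had linear folds of 2.48 and 1.92 for BDNF and 2.55 and 2.11 for NT4. The probe sets with opposite directions in the authors' deposited tables included ones of Anks1b, Apbb1, Ctr9, Eif4ebp2, Klf13 and Matr3, a choice made after their values were seen. Slc6a2 and Gabrg1 were not among these opposite probe sets. Plxnc1 and Braf, counted as differing genes here, each had a probe set of the same direction in the authors' deposited tables. Plxnc1 1450905_at was lower in both lines, with linear folds of −1.55 for BDNF and −1.25 for NT4. Braf 1442749_at was higher in both, with 1.72 and 1.79.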

How the data were processed

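Total RNA of geniculate ganglia was amplified, labelled and hybridized to 12 arrays, 3 for each of 4 groups, per the labels' protocols. The value table deposited by the authors holds 1 linear intensity per probe set and array. The authors' background correction and scaling are not stated. The analysis had assumed log2 values, and since the deposited values are linear, their log2 was taken with no offset. The authors' deposited tables of chosen probe sets give a signed linear fold (a score) and an unadjusted p-value, per the file headers.

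The 4 group means were estimated by lmFit and eBayes of limma (version 3.58.1, R 4.3.3) over 45037 probe sets, and over the 9010 genes with 2 or more probe sets as the mean log2 value of a gene's probe sets. The contrasts were each knockout effect, their difference and their mean, two-sided, with Benjamini-Hochberg adjustment and a threshold of 0.05. Effects are log2, and SE is limma's. The number of arrays limits the precision, with a median SE of the difference of 0.29 for a probe set and 0.21 for a gene. The fit was tested on simulated data. Symbols come from the platform annotation: 34945 probe sets had 1, 932 several and 9160 none. Promoter windows are RefSeq's for GRCm38.p6.

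Named genes were Bdnf, Ntf5, Ntrk2 and Ngfr, the probe sets past the threshold, up to 10 genes of lowest p per sign among differing and among shared genes with a group mean above the median, opposite genes that also differed, and up to 3 members of each described list. Members, lists and tests were chosen with earlier results of these data known. Lists not described in the text are drawn in the plot of list medians where 2 or more probe sets measured a member. Over all probe sets, samples of the same replicate number did not deviate together (r of −0.162 to 0.0986 over 18 pairs), so the numbers were not used as pairs. Replicate 2 did have the highest Xist relative to Y-linked genes in each group. The alternatives tried were other scalings, an offset, an intensity minimum, other probe set rules, a block, a stricter p, and leaving out arrays or chromosomes.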

Additional observations from a re-analysis of the deposited data

Results flagged for a closer look

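The knockout effects of the 2 lines differed, by the test of the difference itself (limma, adjusted p under 0.05), in 5 probe sets and in 1 gene with 2 or more probe sets. The differences of the probe sets were 3.35 for Bloc1s6 1457088_at, −4.69 for 1446755_at, −3.23 for Bdnf 1422168_a_at, 1.38 for Slc6a2 1442449_at and −1.63 for 1441692_at, on the log2 scale. The difference of the gene Bloc1s6 was 1.42. Of the 12 fits that left out 1 array, 12 kept Bloc1s6 1457088_at past the threshold, 6 the gene Bloc1s6, 3 each Bdnf 1422168_a_at and 1446755_at, and 0 each Slc6a2 1442449_at and 1441692_at. Without both arrays of high Xist, Bloc1s6 1457088_at was lost too, with an adjusted p of 0.0746.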

How the results depend on the processing

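Leaving out 1 array at a time gave 1 to 4 probe sets and 0 to 3 genes past the threshold for the difference, 1 to 3 probe sets and 0 to 1 genes for the mean effect, 69 to 136 differing, 57 to 163 shared, 15 to 42 opposite and 16 to 57 alike genes. Quantile normalization gave 1 probe set for the mean effect. Centring arrays on the median gave 3 probe sets for the difference, and 2 probe sets and 0 genes for the mean effect. With the replicate block, 2 probe sets passed for the difference, and 0 probe sets (2775 at an unadjusted p under 0.05) and 0 genes (592) for the mean effect in limma. Without both arrays of high Xist, 1 probe set and 0 genes passed for the difference, 2 probe sets and 0 genes for the mean effect, and there were 64 differing and 11 opposite genes. Without genes of chromosomes 2 and 7, where Bdnf and Ntf5 lie, limma called 0 probe sets (2301 at an unadjusted p under 0.05) and 0 genes (456) for the difference, and 0 probe sets (2533) and 0 genes (527) for the mean effect. In that fit 1446755_at, Slc6a2 1442449_at and 1441692_at kept their differences, with adjusted p of 0.0562, 0.0562 and 0.0626. The median of a gene's probe sets in place of the mean gave 0 genes for the difference (550 unadjusted) and 0 for the mean effect (615). Without probe sets ending in _x_at or _s_at there were 61 differing genes. An unadjusted p under 0.01 left 11 differing, 12 shared, 2 opposite and 4 alike genes. Among 1923 repeats over the 89 named results, 1804 kept direction and side of the threshold, 113 lost the threshold, 2 gained it and 4 changed sign. Only results past the threshold with all arrays as deposited could lose it. Most named results were not past it, so the 1804 do not measure how stable the calls were. The sign changes of the difference were Ngfr at 0.0497 when centred and at 0.0754 by the median of probe sets, Sox5 at 0.0704 by the median, and Ptprc at −0.0377 without NT4 knockout replicate 2, in a range up to 0.701 without NT4 knockout replicate 3. The causes were not tested.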

Other observations

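Some genes of the differing class lay far from 0 without being among the named genes, and they are given here by their values, a choice made after the values were seen. Myb, a transcription factor of dividing progenitor cells, had a BDNF effect of −1.83 (SE 0.76) and an NT4 effect of 1.33 (SE 0.76), the largest difference by size of the 102 differing genes, at −3.16 (SE 1.07) with an adjusted p of 0.676 in limma. Its group means were 222 in BDNF wild types, 41.5 in BDNF knockouts, 33.4 in NT4 wild types and 102 in NT4 knockouts. Ltbp3, a protein that binds latent TGF-beta, had effects of 0.04 (SE 0.19) and 1.11 (SE 0.19), so that the NT4 line carried the difference. Pcdh20, a protocadherin, had effects of 1.03 (SE 0.28) and −0.28 (SE 0.28), and the nuclear receptor Nr5a2 −1.09 (SE 0.17) and −0.03 (SE 0.17), with the BDNF line carrying both. Pcdh20 was still counted as differing in 1 of the 12 fits without 1 array, and Myb, Ltbp3 and Nr5a2 in all 12. Without both arrays of high Xist, Pcdh20 and Myb were no longer counted as differing.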
